A study of Mus musculus with 6 samples.

Results

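The genes described here encode enzymes that feed pyruvate into the mitochondrion, run the tricarboxylic acid (TCA) cycle, branch from it, make pentose phosphates and interconvert glutamate. They come from a list of 31 gene symbols whose rule uses no measured value. Of these, 30 had a probe set on the array annotated with that symbol alone, out of 19938 genes so annotated, and G6pdx was not analysed here. Where a gene had more than 1 probe set, the one with the highest mean was used. All 30 passed a filter on low values, which asked for at least 2 of the 6 arrays above 6.832, the 50th percentile of all values.

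The arrays held RNA of CD8+ T cells from spleens of female C57BL/6 mice that carry the Pmel-1 T cell receptor transgene, which recognises the melanoma antigen gp100. There were 3 groups of 2 arrays. IL-12 cells were primed with gp100 for 4 days and given IL-12 for 6 days, and IL-2 cells were primed the same way and given IL-2 for 6 days, although the design text gives 6 days for antigen and cytokine alike. Naive cells were taken fresh and sorted for CD8 and Thy1.1, while for the primed cells no sort is named, and neither the age of the mice nor separate mice or cultures behind the 2 arrays of a group are given. The p-values may therefore measure technical spread only. The stated aim was to find genes and pathways that T cells need to act against tumours.

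Pyruvate made by glycolysis is turned into acetyl-CoA by the pyruvate dehydrogenase complex and joins oxaloacetate to form citrate, which the TCA cycle oxidises. Dividing T cells also draw citrate out of the cycle to make lipids, and refill it from glutamine by way of glutamate and 2-oxoglutarate. The pentose phosphate pathway makes NADPH in its oxidative arm and exchanges ribose phosphates, the precursors of nucleotides, with glycolysis in its other arm. Activated T cells are known to raise both glucose and glutamine use.

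Values below are log2 values as deposited, and fold changes are differences of group means on that scale with the standard error (SE) of a limma fit over all 11147 tested genes. Adjusted p is the Benjamini-Hochberg value of that fit over those genes, with a threshold of 0.05 and n = 2 arrays per group. Levels of different genes are not compared, since each has its own probes. The CD8 alpha chain gene Cd8a was high on the 6 arrays, at 12.12 to 12.66, but lower than in naive cells in IL-12 cells (-0.49 ± 0.10, adjusted p = 0.00292) and IL-2 cells (-0.32 ± 0.10, adjusted p = 0.0285). The summed level of 9 CD8 T cell markers was 15.31 and 15.27 in IL-12 cells, 15.62 and 15.65 in IL-2 cells and 15.59 and 15.72 in naive cells. Of these 9, 5 were lower in IL-12 than in IL-2 cells, Cd8b1, Cd3d, Cd2, Cd5 and Thy1, and none was higher. Against naive cells 6 were lower in IL-12 cells, while in IL-2 cells 1 was higher and 1 lower. Beside these counts, the test between the primed groups called 11% of all tested genes lower and 9.82% higher. Against naive cells it called 26.7% lower and 31.2% higher after IL-12, and 19.9% lower and 25.8% higher after IL-2. The same shares apply to the marker lists that follow. Of 4 CD4 and regulatory T cell markers, Cd4 stayed between 6.19 and 6.61, below the filter value on every array. Cd40lg also did not pass the filter, and Foxp3 was called in no comparison. Zbtb7b was higher than in naive cells in IL-12 cells (1.54 ± 0.15, adjusted p = 4.47e-05) and IL-2 cells (1.87 ± 0.15, adjusted p = 2.15e-05). The summed level of the 4 was 9.52 and 9.44 in IL-12 cells, 9.62 and 9.70 in IL-2 cells and 8.75 and 8.76 in naive cells. B cell genes were present in part. The summed level of 12 B cell markers was 11.50 on both IL-12 arrays, 10.52 and 10.49 on the IL-2 arrays, and 12.64 and 12.67 on the naive arrays. All 12 were lower in both primed groups than in naive cells, and 9 were higher in IL-12 than in IL-2 cells. Fcer2a, Cr2, Ebf1 and Blk read below the filter value on all primed arrays and passed it only through their naive arrays. Their calls support nothing here, including those of Ebf1 and Blk as higher in IL-12 than in IL-2 cells. The summed level of 11 myeloid and dendritic markers was 11.95 and 12.08 in IL-12 cells, 12.01 and 12.08 in IL-2 cells and 12.34 and 12.62 in naive cells. On the primed arrays that sum is mostly Cst3, which read at least 11.12 on every array and was called in no comparison. On the naive arrays, where Cst3 read 11.12 and 11.50, the other markers together made up more of the sum than Cst3. Of the 9 tested markers of this list, 6 were lower in IL-12 cells and 7 in IL-2 cells than in naive cells. Among them, Lyz2, Csf1r, Adgre1 and Mpeg1 passed the filter only through their naive arrays, so their calls support nothing here. The lysozyme gene Lyz2 read 5.84 and 5.64 in IL-12 cells, 5.65 and 5.20 in IL-2 cells and 9.31 and 9.35 in naive cells. In IL-12 against IL-2 cells, 2 were called higher, Itgam and Mpeg1. Itgam was also called higher in IL-12 than in naive cells. It read 7.41 and 7.63 in IL-12 cells, 6.55 and 6.59 in IL-2 cells and 6.19 and 6.44 in naive cells. Itgam passed the filter only through its IL-12 arrays, so its calls support nothing here. Mpeg1 stayed below the filter value in both primed groups. The natural killer markers Ncr1, Klrb1c and Klra8 stayed below the filter value on all arrays. In such bulk samples, fewer cells of a type and less RNA per cell cannot be told apart, and the part of these other cells in the results below was not tested.

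The 2 naive arrays differed over the enzyme genes. Naive replicate 1 read lower than replicate 2 for 26 of 30 genes, with a median difference of -0.21, against -0.07 over all tested genes. In the primed groups the same median difference over the 30 genes was -0.01 for IL-12 and 0.05 for IL-2. Comparisons with naive cells are therefore also given without each naive array.

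**Figure D1:**
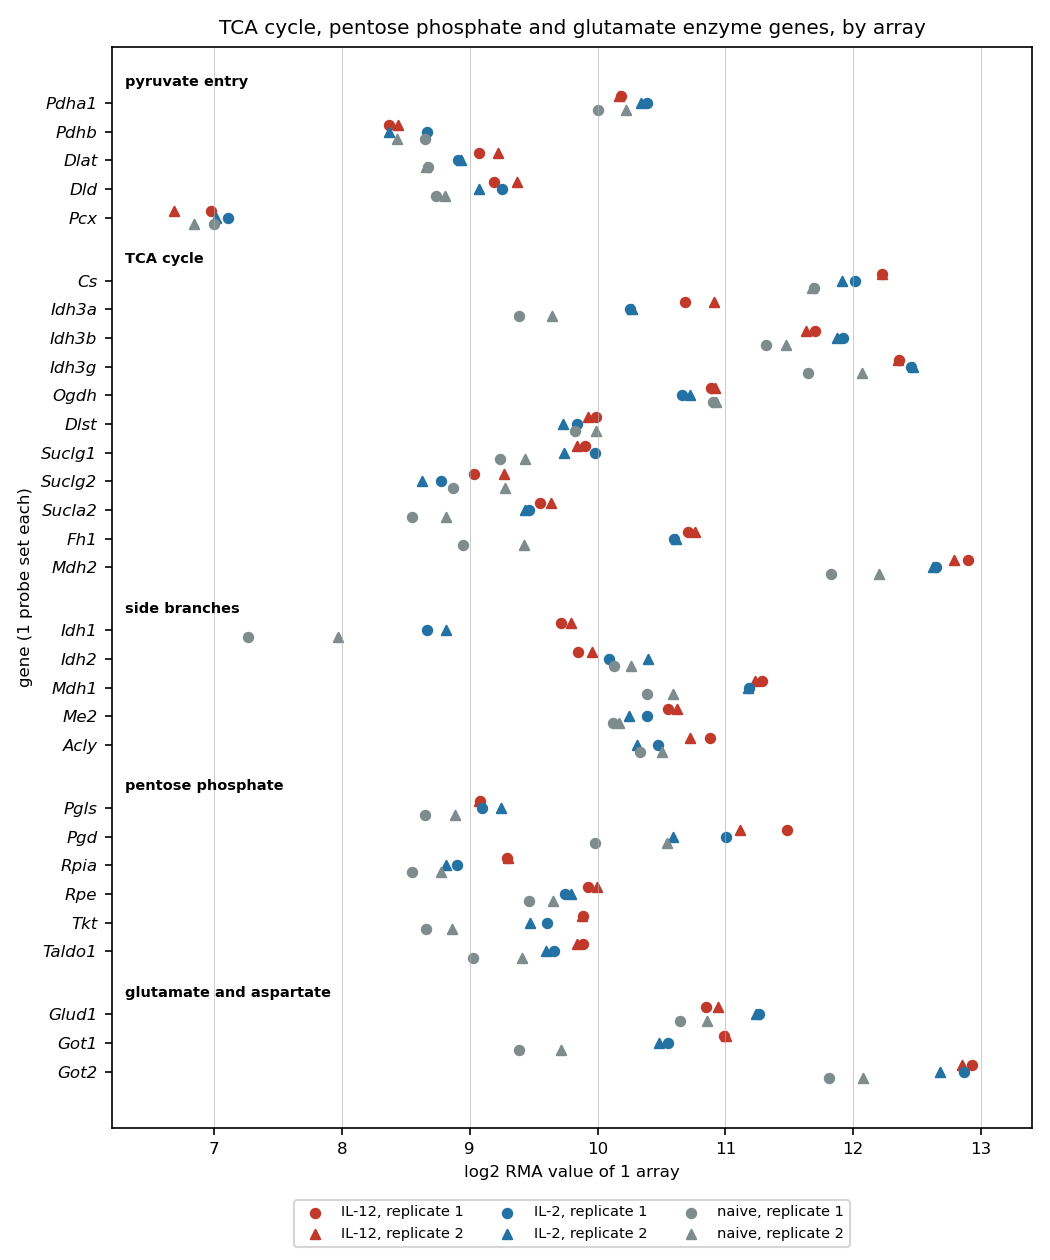
Log2 RMA values (x axis) of the 30 enzyme genes (y axis, grouped by role) on each of the 6 arrays. Colours stand for the IL-12, IL-2 and naive groups and symbols for the replicate. For Idh1 the IL-12 arrays read 9.72 and 9.79, the IL-2 arrays 8.66 and 8.81, and the naive arrays 7.26 and 7.97.

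Between the primed groups, Idh1, Idh3a, Got1, Rpia and Acly were higher with IL-12 than with IL-2, and no enzyme gene passed the test in the other direction. These 5 of 30 genes are 16.7%, beside 20.8% of all tested genes called in either direction, 9.82% higher and 11% lower. Both IL-12 arrays lay above both IL-2 arrays for 19 of the 30 genes and below them for 7, beside 36.1% and 33.4% of all tested genes. At an unadjusted p of 0.05, limma gave 10 genes higher and 2 lower. The median log2 fold change of the 30 genes was 0.18, against 0.02 over all tested genes. The role groups held few calls each, with 1 of 11 TCA cycle genes, 2 of 5 genes on side branches, 1 of 6 pentose phosphate genes, 1 of 3 glutamate and aspartate genes and 0 of 5 genes of pyruvate entry.

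Idh1 encodes the cytosolic isocitrate dehydrogenase, which makes NADPH from isocitrate. It read 9.72 and 9.79 on the IL-12 arrays, against 8.66 and 8.81 on the IL-2 arrays, so that the groups lay more than their own spread apart. The difference was 2.02-fold, with a log2 fold change of 1.02 ± 0.20 (adjusted p = 0.00867). Its mitochondrial counterpart Idh2, which also makes NADPH, read 9.85 and 9.96 on the IL-12 arrays, against 10.09 and 10.39 on the IL-2 arrays. Its log2 fold change was -0.34 ± 0.13 and did not pass the test (adjusted p = 0.0934). The 2 paralogs thus had changes of opposite sign, but the difference between them was not tested.

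Idh3a, the catalytic subunit of the NAD-dependent isocitrate dehydrogenase of the cycle, read 10.68 and 10.91 on the IL-12 arrays, against 10.26 and 10.27 on the IL-2 arrays. This was a log2 fold change of 0.53 ± 0.13 (adjusted p = 0.0197). The genes of its other subunits were not called, at log2 fold changes of -0.23 ± 0.11 for Idh3b and -0.11 ± 0.14 for Idh3g (adjusted p = 0.153 and 0.631). Got1, the cytosolic aspartate aminotransferase of the malate-aspartate shuttle, read 10.99 and 11.00 on the IL-12 arrays, against 10.55 and 10.48 on the IL-2 arrays (0.48 ± 0.13, adjusted p = 0.0271). Got2, the mitochondrial form, read 12.93 and 12.85 on the IL-12 arrays, against 12.87 and 12.68 on the IL-2 arrays, and these ranges overlapped (0.12 ± 0.13, adjusted p = 0.553). Its second probe set had a log2 fold change of 0.12. RefSeq also lists a Got2 pseudogene, so the signal of either probe set may not come from Got2 alone.

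Rpia, the ribose 5-phosphate isomerase of the pentose phosphate pathway, read 9.29 and 9.30 on the IL-12 arrays, against 8.90 and 8.82 on the IL-2 arrays (0.44 ± 0.11, adjusted p = 0.0254). Acly, which splits exported citrate into acetyl-CoA and oxaloacetate in the cytosol, read 10.88 and 10.72 on the IL-12 arrays, against 10.47 and 10.31 on the IL-2 arrays (0.41 ± 0.12, adjusted p = 0.0399). In both genes the lower IL-12 array lay above the higher IL-2 array.

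Several other genes lay near the threshold. Glud1, the glutamate dehydrogenase that delivers 2-oxoglutarate to the cycle, read 10.85 and 10.94 on the IL-12 arrays, against 11.26 and 11.24 on the IL-2 arrays. Its log2 fold change of -0.36 ± 0.11 just missed the test (adjusted p = 0.0519). Tkt, the transketolase that links the pentose phosphate pathway to glycolysis, read 9.88 on both IL-12 arrays and 9.60 and 9.47 on the IL-2 arrays (0.34 ± 0.11, adjusted p = 0.0617). Suclg2, the GTP-specific beta subunit of succinyl-CoA ligase, read 9.04 and 9.27 on the IL-12 arrays, against 8.78 and 8.62 on the IL-2 arrays (0.45 ± 0.15, adjusted p = 0.0688). Without naive replicate 1 or naive replicate 2, whose spread then no longer entered the fit, these 3 genes passed the test (adjusted p = 0.0178, 0.0233 and 0.0208 in that order, the same without either array). Pgd, the second NADPH-making enzyme of the oxidative arm, read 11.48 and 11.11 on the IL-12 arrays, against 11.01 and 10.59 on the IL-2 arrays, and its wide spread left an adjusted p of 0.135 for a log2 fold change of 0.50 ± 0.21.

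None of the remaining genes was called, and their log2 fold changes ran from -0.23 for Pcx, the pyruvate carboxylase that refills oxaloacetate, to 0.27 for Me2, the mitochondrial malic enzyme. Fh1, the fumarase, had 0.13 ± 0.15, and Suclg1, the alpha subunit of succinyl-CoA ligase, 0.01 ± 0.12. The pyruvate dehydrogenase subunit genes lay between -0.18 for Pdha1 and 0.22 for Dlat.

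The calls between the primed groups rested on few arrays. Without IL-12 replicate 1, 2 of the 30 genes were called, and none was called without IL-12 replicate 2, IL-2 replicate 1 or IL-2 replicate 2. At the same time the number of all genes called, 2321 with every array, was 1219, 1031, 954 and 737 in that order. Idh1 had adjusted p = 0.0543 without IL-12 replicate 2, 0.0676 without IL-2 replicate 1 and 0.0503 without IL-2 replicate 2. Idh3a had adjusted p = 0.152, 0.114 and 0.12 without these arrays in the same order. Acly had adjusted p = 0.213 without IL-12 replicate 1 and 0.0916, 0.1 and 0.265 without the other 3. Rpia had 0.107 without IL-12 replicate 1 and 0.13, 0.104 and 0.182 without the others, and Got1 had 0.107, 0.132, 0.111 and 0.177. The log2 fold changes themselves stayed between 0.94 and 1.09 for Idh1, 0.42 and 0.65 for Idh3a, 0.33 and 0.49 for Acly, 0.40 and 0.48 for Rpia and 0.45 and 0.52 for Got1 over these 4 fits. Acly was also not called with no filter (adjusted p = 0.053), with quantile normalization (0.0593) or with arrays centred on their medians (0.0593).

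**Figure D2:**
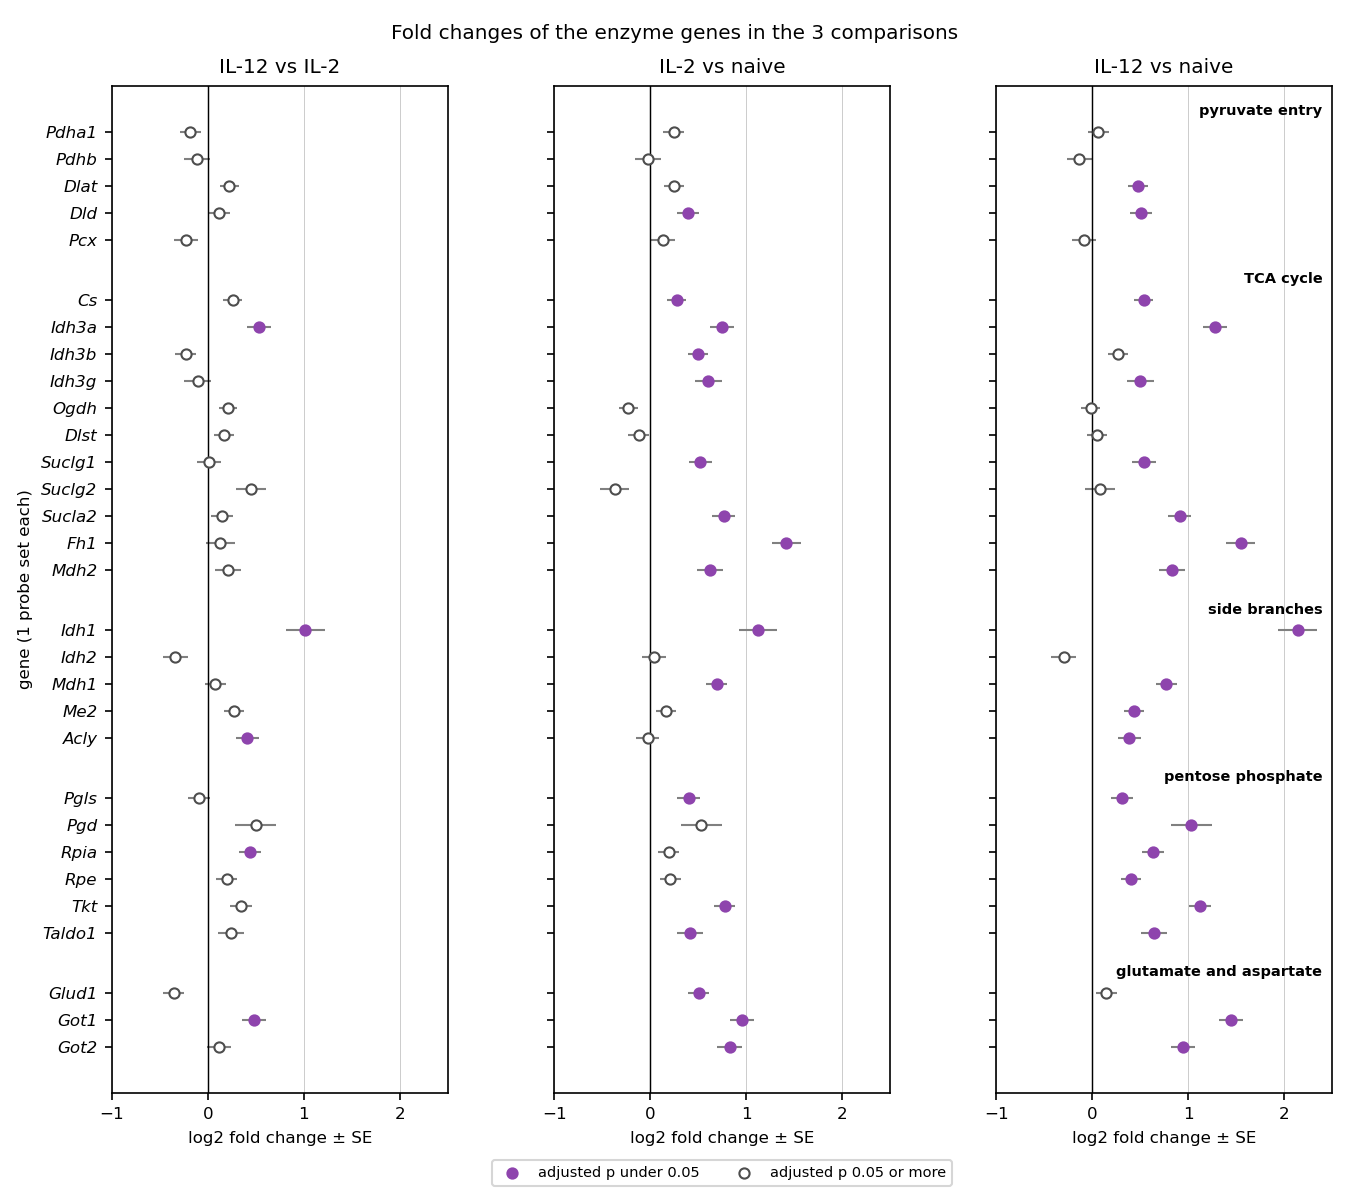
Log2 fold changes with SE (x axis) of the 30 enzyme genes (y axis) in IL-12 against IL-2, IL-2 against naive and IL-12 against naive cells, n = 2 arrays per group. Filled points had a limma adjusted p under 0.05, which holds for 5, 17 and 21 genes, all of them to the right of 0.

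Promoter windows of the genes called higher in IL-12 than in IL-2 cells are shown because these genes were called together. They are RefSeq sequences of build GRCm38.p6, from 250 bases before to 50 bases after the annotated start, and 29 of the 31 listed genes had at least 1 window in the table, 37 windows in all. Idh3a had none, and Idh1 has a second window that is not printed. Capitals mark GGGCGG, a GC box that Sp1 family factors are known to bind, and CCAAT, the letters of the NF-Y box, on either strand. These 2 motifs were added after the values were seen. In the printed windows no match overlapped another.
Idh1 promoter window, chr1:65186430-65186729, strand -: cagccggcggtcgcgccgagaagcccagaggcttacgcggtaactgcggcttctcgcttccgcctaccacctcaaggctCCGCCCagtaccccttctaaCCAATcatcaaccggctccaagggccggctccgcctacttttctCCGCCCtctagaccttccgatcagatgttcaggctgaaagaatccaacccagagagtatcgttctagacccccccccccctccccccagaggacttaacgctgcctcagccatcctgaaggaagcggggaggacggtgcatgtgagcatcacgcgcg
Acly promoter window, chr11:100527951-100528250, strand -: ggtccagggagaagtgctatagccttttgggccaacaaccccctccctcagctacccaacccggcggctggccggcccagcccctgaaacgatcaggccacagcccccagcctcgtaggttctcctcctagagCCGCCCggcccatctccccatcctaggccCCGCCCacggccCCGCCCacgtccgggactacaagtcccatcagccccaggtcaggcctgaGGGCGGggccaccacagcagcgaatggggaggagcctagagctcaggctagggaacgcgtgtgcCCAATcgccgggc
Rpia promoter window, chr6:70792126-70792425, strand -: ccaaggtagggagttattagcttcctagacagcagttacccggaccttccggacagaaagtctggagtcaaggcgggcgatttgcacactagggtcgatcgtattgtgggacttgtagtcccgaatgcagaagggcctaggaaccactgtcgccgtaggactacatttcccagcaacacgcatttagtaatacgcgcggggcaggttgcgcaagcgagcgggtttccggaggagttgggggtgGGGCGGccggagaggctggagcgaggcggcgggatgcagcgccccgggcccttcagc
Got1 promoter window, chr19:43524556-43524855, strand -: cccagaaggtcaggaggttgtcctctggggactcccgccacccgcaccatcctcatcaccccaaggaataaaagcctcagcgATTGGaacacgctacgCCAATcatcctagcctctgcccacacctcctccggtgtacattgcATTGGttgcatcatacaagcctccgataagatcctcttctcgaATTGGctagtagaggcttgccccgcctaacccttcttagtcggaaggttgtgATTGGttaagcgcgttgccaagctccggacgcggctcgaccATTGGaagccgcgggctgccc

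The Got1 window held 6 copies of CCAAT and none of GGGCGG, while the Acly window held 4 copies of GGGCGG and 1 of CCAAT. The Idh1 window held 2 of GGGCGG and 1 of CCAAT, and the Rpia window held 1 copy of GGGCGG alone. The GC box stood in a window of 22 of 29 genes (75.9%), against 38.2% of all 27025 genes with a window, and CCAAT in 16 of 29 (55.2%), against 41.1%. The median GC content of the 37 windows was 60.7%, against 52.7% over all 32851 windows. CACGTG, the E-box that Myc is known to bind, stood in windows of 2 genes, Pcx and Ogdh (6.9%, against 8.09% of all genes). TGACNNNGC, the core of the antioxidant response element, stood in windows of 7 genes (24.1%, against 14%), among them Pgd and G6pdx but none of the printed ones. GCGCGAAA, an E2F-type site, was found in 0 of 29, against 0.374% of all genes. All were searched on both strands, and a match describes letters only.

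After priming with IL-2, 17 of 30 enzyme genes were higher than in naive cells and none was lower. This is 56.7%, beside 45.7% of all tested genes called in either direction, 25.8% higher and 19.9% lower. Both IL-2 arrays lay above both naive arrays for 24 genes and below them for 2, beside 38.7% and 35.2% of all tested genes. At an unadjusted p of 0.05 limma gave 19 genes higher and 2 lower. After priming with IL-12, 21 of 30 rose against the same naive arrays and none fell, which is 70%, beside 57.9% of all tested genes called in either direction, 31.2% higher and 26.7% lower. At an unadjusted p of 0.05, 22 were higher and 1 was lower. Both IL-12 arrays lay above both naive arrays for 22 genes and below them for 1, beside 42.5% and 36.7% of all tested genes. The median log2 fold change of the 30 genes was 0.41 after IL-2 and 0.50 after IL-12, against 0.01 and 0.04 over all tested genes. The naive arrays are shared by both comparisons, so their values are given side by side. With arrays centred on their medians, which moved the median of all tested genes to 0.11 and 0.16, 19 and 22 enzyme genes rose and their medians were 0.51 and 0.62. The share of calls in the higher direction over all genes was then 3282 of 4844 after IL-2 and 4051 of 6330 after IL-12, against 2873 of 5095 and 3482 of 6454 as deposited.

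Of 11 TCA cycle genes, 8 rose in IL-2 and 7 in IL-12 cells against naive cells, beside 25.8% and 31.2% of all tested genes. Fh1 read 10.71 and 10.76 in IL-12 cells, 10.60 and 10.62 in IL-2 cells and 8.95 and 9.42 in naive cells. It was 2.93-fold higher in IL-12 cells (1.55 ± 0.15, adjusted p = 3.72e-05) and 2.68-fold higher in IL-2 cells (1.42 ± 0.15, adjusted p = 0.000102). Both primed groups lay far above the naive arrays and close to each other. Sucla2, the ATP-specific beta subunit of succinyl-CoA ligase, read 9.55 and 9.64 in IL-12 cells, 9.46 and 9.43 in IL-2 cells and 8.55 and 8.81 in naive cells. It rose by 0.91 ± 0.12 in IL-12 and 0.77 ± 0.12 in IL-2 cells (adjusted p = 0.000202 and 0.000888). Its GTP-specific counterpart Suclg2 read 9.04 and 9.27 in IL-12 cells, 8.78 and 8.62 in IL-2 cells and 8.87 and 9.27 in naive cells. Suclg2 thus overlapped the naive range in IL-12 cells and lay below it in IL-2 cells (-0.37 ± 0.15, adjusted p = 0.0784), and its second probe set gave -0.38 for the same comparison. The 2 Suclg2 probe sets carry the same accessions and nearly the same values, as do those of Got2, so the second is no separate measurement and the signal of either may not come from Suclg2 alone. Suclg1 rose by 0.54 ± 0.12 in IL-12 and 0.53 ± 0.12 in IL-2 cells (adjusted p = 0.00501 and 0.00773).

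Mdh2, the malate dehydrogenase of the cycle, read 12.90 and 12.79 in IL-12 cells, 12.65 and 12.62 in IL-2 cells and 11.82 and 12.20 in naive cells, a rise of 0.83 ± 0.14 and 0.62 ± 0.14. Cs, the citrate synthase that opens the cycle, read 12.22 and 12.23 in IL-12 cells, 12.01 and 11.92 in IL-2 cells and 11.69 and 11.68 in naive cells. Cs rose by 0.54 ± 0.10 in IL-12 cells (adjusted p = 0.00158), and its smaller rise in IL-2 cells only just passed the test (0.28 ± 0.10, adjusted p = 0.0474). The 3 subunits of the NAD-dependent isocitrate dehydrogenase differed in size. Idh3a rose by 1.28 ± 0.13 in IL-12 and 0.75 ± 0.13 in IL-2 cells, while Idh3g rose by 0.50 ± 0.14 and 0.61 ± 0.14. Idh3b rose in IL-2 cells (0.50 ± 0.11, adjusted p = 0.00477) but did not pass the test in IL-12 cells (0.27 ± 0.11, adjusted p = 0.0562). The E1 and E2 subunit genes of the oxoglutarate dehydrogenase complex, Ogdh and Dlst, did not pass the test in either comparison. Ogdh had -0.02 ± 0.10 in IL-12 and -0.23 ± 0.10 in IL-2 cells, and Dlst 0.05 ± 0.11 and -0.12 ± 0.11.

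Among the 5 genes of pyruvate entry, Dld and Dlat were called. This was 2 of 5 (40%) in IL-12 and 1 of 5 (20%) in IL-2 cells, all higher. Over all tested genes, 31.2% and 25.8% were higher. Dld, the E3 subunit shared with the oxoglutarate complex, read 9.19 and 9.37 in IL-12 cells, 9.25 and 9.07 in IL-2 cells and 8.73 and 8.81 in naive cells. It rose by 0.51 ± 0.12 in IL-12 and 0.39 ± 0.12 in IL-2 cells (adjusted p = 0.00488 and 0.0225). Dlat, the E2 subunit, rose in IL-12 cells (0.48 ± 0.10, adjusted p = 0.00377) and had 0.25 ± 0.10 in IL-2 cells (adjusted p = 0.076). The genes of the E1 subunits, Pdha1 and Pdhb, and of pyruvate carboxylase, Pcx, passed the test in neither comparison, with log2 fold changes between -0.13 and 0.25. Pcx lay between 6.69 and 7.11 on all arrays, near the filter value.

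On the side branches Idh1 had the largest rise of the 30 genes in IL-12 cells. It read 7.26 and 7.97 on the naive arrays and was 4.41-fold higher in IL-12 cells (2.14 ± 0.20, adjusted p = 2.93e-05) and 2.18-fold higher in IL-2 cells (1.12 ± 0.20, adjusted p = 0.00196). Without naive replicate 1 the log2 rises were 1.79 and 0.77, and without naive replicate 2 they were 2.49 and 1.48. Idh2 read 10.13 and 10.27 on the naive arrays and passed neither test, with -0.30 ± 0.13 in IL-12 and 0.04 ± 0.13 in IL-2 cells (adjusted p = 0.0749 and 0.81). Mdh1, the cytosolic malate dehydrogenase of the malate-aspartate shuttle, read 11.29 and 11.23 in IL-12 cells, 11.19 and 11.18 in IL-2 cells and 10.38 and 10.59 in naive cells. It rose by 0.77 ± 0.11 and 0.70 ± 0.11. Me2 and Acly rose in IL-12 cells (0.44 ± 0.10 and 0.39 ± 0.12, adjusted p = 0.00607 and 0.0208) and were not called in IL-2 cells, at 0.17 ± 0.10 and -0.03 ± 0.12. Between IL-12 and IL-2 cells, Acly also passed the test, as given above, whereas Me2 did not (adjusted p = 0.0994).

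All 6 measured pentose phosphate genes rose in IL-12 cells and 3 rose in IL-2 cells, beside 31.2% and 25.8% of all tested genes. Tkt read 8.66 and 8.86 on the naive arrays and was 2.18-fold higher in IL-12 cells (1.12 ± 0.11, adjusted p = 4.59e-05) and 1.71-fold higher in IL-2 cells (0.78 ± 0.11, adjusted p = 0.000656). Taldo1, the transaldolase, read 9.88 and 9.84 in IL-12 cells, 9.66 and 9.60 in IL-2 cells and 9.02 and 9.41 in naive cells (0.65 ± 0.14 and 0.41 ± 0.14). Pgd read 9.98 and 10.55 on the naive arrays, so that its higher naive array nearly reached the lower IL-2 array. It rose by 1.03 ± 0.21 in IL-12 cells (adjusted p = 0.003) and had 0.54 ± 0.21 in IL-2 cells (adjusted p = 0.07). Pgls, the lactonase between the dehydrogenases of the oxidative arm, rose by 0.31 ± 0.12 and 0.40 ± 0.12, both close to the threshold (adjusted p = 0.0483 and 0.0214). Rpia rose by 0.63 ± 0.11 in IL-12 cells and had 0.19 ± 0.11 in IL-2 cells, and Rpe, the ribulose phosphate epimerase, rose by 0.41 ± 0.11 in IL-12 cells and had 0.21 ± 0.11 in IL-2 cells (adjusted p = 0.193 and 0.142 for the IL-2 values).

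The aminotransferase genes rose in both primed groups. Got1 read 9.39 and 9.71 on the naive arrays and was 2.72-fold higher in IL-12 cells (1.45 ± 0.13, adjusted p = 1.91e-05) and 1.95-fold higher in IL-2 cells (0.96 ± 0.13, adjusted p = 0.000361). Got2 read 11.81 and 12.08 on the naive arrays and rose by 0.95 ± 0.13 and 0.83 ± 0.13 (adjusted p = 0.000251 and 0.000873). Glud1 read 10.64 and 10.85 on the naive arrays. It rose in IL-2 cells (0.51 ± 0.11, adjusted p = 0.00576), while in IL-12 cells its lower array, at 10.85, did not clear the naive range (0.15 ± 0.11, adjusted p = 0.286).

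Leaving out 1 array changed the calls of the smaller rises. In IL-2 against naive cells, Cs was no longer called whichever array was left out, with adjusted p = 0.259 without IL-2 replicate 1, 0.115 without IL-2 replicate 2, 0.0611 and 0.0594 without naive replicate 1 and 2, and 0.0833 without either IL-12 array. Dld was lost without IL-2 replicate 1 (0.177) or naive replicate 1 (0.0628), and Suclg1 without IL-2 replicate 1 (0.0847). Pgls had adjusted p = 0.0562 and 0.152 without IL-2 replicate 1 and 2 and 0.0739 without naive replicate 1. Taldo1 had 0.162 and 0.109 without IL-2 replicate 1 and 2, 0.121 without naive replicate 1 and 0.0544 without either IL-12 array. Without naive replicate 2, the array with the higher values, Pdha1, Pgd, Rpia and Rpe were called higher (adjusted p = 0.0198, 0.014, 0.0378 and 0.0404), and without naive replicate 1 Suclg2 was called lower (-0.57, adjusted p = 0.0133). The median log2 fold change of the 30 genes was 0.28 without naive replicate 1 and 0.55 without naive replicate 2.

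In IL-12 against naive cells the calls of Idh3g (adjusted p = 0.0597 and 0.0603 without IL-12 replicate 1 and 2), Acly (0.138 without IL-12 replicate 1 and 0.0754 without naive replicate 1) and Rpe (0.0726 without IL-12 replicate 2) were lost. Pgls was lost without either IL-12 array (0.15 each), naive replicate 1 (0.177) or either IL-2 array (0.0763). Idh3b was called without naive replicate 2 (0.0198). Between 18 and 22 of the 30 genes were called whichever array was left out, and the median lay between 0.45 and 0.54.

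**Figure D3:**
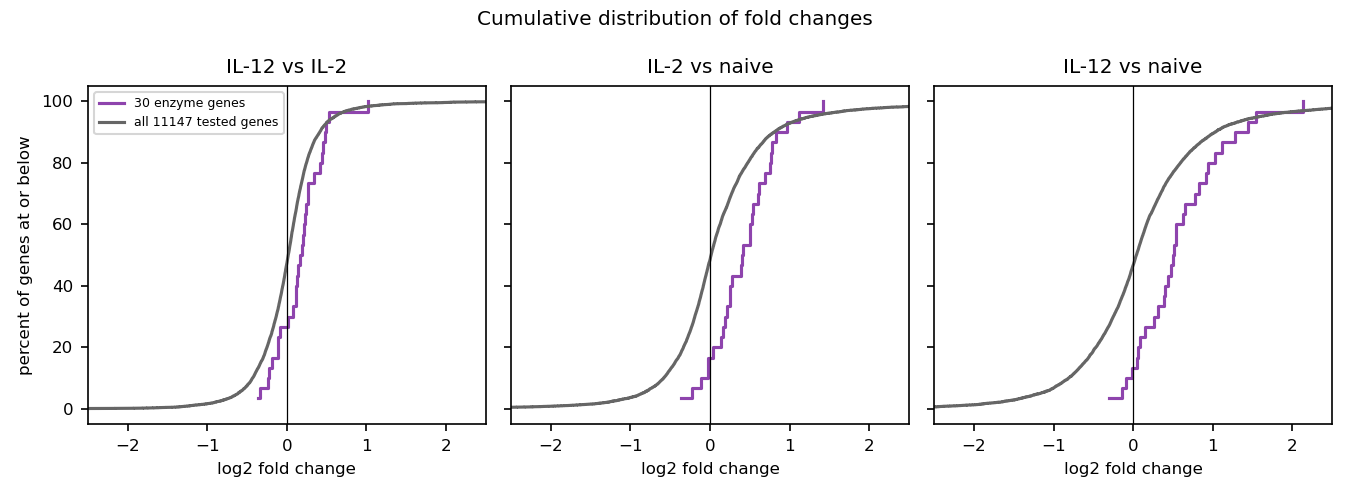
Percent of genes (y axis) with a log2 fold change at or below the value on the x axis, for the 30 enzyme genes and all 11147 tested genes in the 3 comparisons. The x axis is shown from -2.5 to 2.5, and the curves of the enzyme genes lie to the right at the middle, with medians of 0.18, 0.41 and 0.50 against 0.02, 0.01 and 0.04.

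Over the 3 groups, 3 genes, Idh1, Idh3a and Got1, were called in every comparison, higher in IL-12 than in IL-2 cells and higher in both than in naive cells. This pattern held for 4.02% of all tested genes. Another 12 genes were called higher in both primed groups than in naive cells without a call between the primed groups, a pattern of 17.1% of all tested genes, among them Fh1, Mdh1, Mdh2, Sucla2, Tkt and Got2. Acly and Rpia were called higher in IL-12 cells than in either other group, without a call between IL-2 and naive cells, a pattern of 3.37% of all tested genes. A further 7 genes, Pdha1, Pdhb, Pcx, Idh2, Ogdh, Dlst and Suclg2, passed the test in no comparison, a pattern of 34.6% of all tested genes. The IL-12 mean was the highest of the 3 for 21 of 30 genes, beside 39.4% of all tested genes, and the naive mean was the lowest for 23, beside 43.9%.

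Genes next to these enzymes were counted in 6 further lists. Between the primed groups, beside 9.82% of all tested genes called higher and 11% lower, 10 of 17 tested genes (58.8%) of glutamine entry and use were higher and none was lower at the adjusted threshold or at an unadjusted p of 0.05 (limma). Its median log2 fold change was 0.45, against 0.02 over all tested genes. Gpt2, the mitochondrial alanine aminotransferase, read 7.59 and 7.42 in IL-12 cells, 6.62 and 6.59 in IL-2 cells and 6.04 on both naive arrays. It is 1 of the 10 but passed the filter only through its IL-12 arrays, with all other values below the filter value, so its call supports nothing here and no fold change is given. The others named by rank were genes whose enzymes take the amide nitrogen of glutamine, Ctps for CTP (0.81 ± 0.13), Cad for pyrimidines (0.71 ± 0.13), Gfpt1 for hexosamines (0.68 ± 0.11) and Pfas for purines (0.62 ± 0.10), and the glutamine transporter gene Slc38a2 (0.51 ± 0.11). Their adjusted p lay between 0.00311 and 0.0134. The transporter genes Slc1a5 and Slc38a1 had -0.01 ± 0.13 and 0.02 ± 0.10. Without IL-2 replicate 2 the calls of Gfpt1, Cad and Slc38a2 were lost (adjusted p = 0.0557, 0.0684 and 0.143), and Slc38a2 was also lost without IL-12 replicate 1 (0.0795) or IL-12 replicate 2 (0.0709), whereas Pfas and Ctps were called in all 4 fits. Asparagine synthetase, Asns, read 10.84 and 10.23 in IL-12 cells, 9.91 and 9.23 in IL-2 cells and 6.29 and 6.35 in naive cells. Its naive values lay below the filter value, so no size is given for its rise. The serine pathway aminotransferase gene Psat1 rose by 2.45 ± 0.13 in IL-12 and 2.04 ± 0.13 in IL-2 cells against naive cells. In all, Gpt2 and Asns included, 12 of the 17 rose in IL-12 and 7 in IL-2 cells against naive cells, beside 31.2% and 25.8% of all tested genes, with 1 that fell in IL-2 cells, Gfpt1 (-0.75 ± 0.11).

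Downstream of Acly, 4 genes of cytosolic acetyl-CoA use were tested and all 4 were called between the primed groups, 3 higher and 1 lower, beside 9.82% and 11% of all tested genes. The fatty acid synthesis genes Fasn and Acaca rose by 0.77 ± 0.12 and 0.73 ± 0.11 in IL-12 against IL-2 cells (adjusted p = 0.003 and 0.00231), and the sterol pathway gene Hmgcs1 by 0.80 ± 0.19 (0.0211). Acss2, which makes acetyl-CoA from acetate rather than from citrate, was 1.48-fold lower (-0.57 ± 0.15, adjusted p = 0.0282). Acss2 read 8.88 and 8.56 in IL-12 cells, 9.36 and 9.22 in IL-2 cells and 10.14 and 10.45 in naive cells, so that the 3 groups did not overlap. Fasn and Acaca were called in every fit without 1 array of either group. Hmgcs1 was lost without IL-12 replicate 1 (adjusted p = 0.129) or IL-2 replicate 2 (0.169), and Acss2 without IL-12 replicate 2 (0.198), IL-2 replicate 1 (0.167) or IL-2 replicate 2 (0.108), and with quantile normalization (0.0512).

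Of 9 mitochondrial carriers, the citrate carrier gene Slc25a1 rose between the primed groups (0.61 ± 0.18, adjusted p = 0.0408), a call lost without IL-12 replicate 1 (0.233), IL-2 replicate 1 (0.0937) or IL-2 replicate 2 (0.244), with no filter (0.0524) and with quantile normalization (0.0594). The call of Slc25a1 was 1 of 9 (11.1%), with none lower, beside 9.82% of all tested genes called higher and 11% lower. Against naive cells 5 carriers rose in each primed group, beside 31.2% of all tested genes in IL-12 and 25.8% in IL-2 cells. Among them was the aspartate-glutamate carrier gene Slc25a13, by 1.21 ± 0.11 in IL-12 and 0.85 ± 0.11 in IL-2 cells. Carriers that fell were 22.2% in IL-12 and 11.1% in IL-2 cells, beside 26.7% and 19.9% of all tested genes. The glutamate carrier gene Slc25a22 fell in both, at -0.40 ± 0.11 in IL-12 and -0.51 ± 0.11 in IL-2 cells (adjusted p = 0.0131 and 0.00569). Slc25a12, the other aspartate-glutamate carrier gene, fell in IL-12 cells (-0.40 ± 0.10, adjusted p = 0.00773), a call lost without IL-12 replicate 2 (0.0684) and with arrays centred on their medians (0.0587). Of 10 genes of the pentose phosphate branch and NADPH list, 3 (30%) rose between the primed groups and none fell. Over all tested genes these shares were 9.82% and 11%. Against naive cells 5 rose and 3 fell in IL-12 cells, 50% and 30%, beside 31.2% and 26.7% of all tested genes. In IL-2 cells 5 rose and 2 fell, 50% and 20%, beside 25.8% and 19.9%. Those that rose between the primed groups were Prps1, which makes phosphoribosyl pyrophosphate from ribose 5-phosphate (0.66 ± 0.17), and the NADPH-using reductase genes Gsr (0.50 ± 0.12) and Txnrd1 (0.46 ± 0.11), with adjusted p from 0.0192 to 0.0241. Gsr was lost without IL-12 replicate 2 (0.162), IL-2 replicate 1 (0.0839) or IL-2 replicate 2 (0.169), and Txnrd1 without the same arrays (0.152, 0.0728 and 0.167). Prps1 was lost without any 1 of the 4 arrays (0.107 and 0.0948 without IL-12 replicate 1 and 2, 0.0998 and 0.15 without IL-2 replicate 1 and 2).

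Among 10 genes of pyruvate entry and its control, Pdk2 showed the largest difference between the primed groups. It encodes a kinase that inactivates pyruvate dehydrogenase. Pdk2 read 7.11 and 7.19 in IL-12 cells, 8.32 and 8.70 in IL-2 cells and 8.48 and 8.78 in naive cells. It was 2.57-fold lower in IL-12 than in IL-2 cells (-1.36 ± 0.15, adjusted p = 0.000556) and was called lower without any 1 of the 4 arrays (adjusted p up to 0.00727). The IL-2 and naive ranges overlapped. The other kinase genes differed in direction. Pdk3 rose by 1.13 ± 0.14 in IL-12 and 0.84 ± 0.14 in IL-2 cells against naive cells, and Pdk1 fell by 1.56 and 0.99 on the log2 scale in the same comparisons, with the IL-12 arrays far apart at 9.71 and 8.77. The Pdk1 call for IL-2 cells was lost without IL-2 replicate 2 (adjusted p = 0.0632). Pdp2, a phosphatase that reactivates the complex, rose between the primed groups (0.62 ± 0.18, adjusted p = 0.0427), a call lost without IL-12 replicate 1 (0.131), IL-12 replicate 2 (0.169) or IL-2 replicate 2 (0.29), with no filter (0.0548) and with arrays centred on their medians (0.0549). In this list 1 gene was higher and 1 lower between the primed groups, 10% each, beside 9.82% and 11% of all tested genes. Against naive cells 3 rose and 4 fell in IL-12 cells, 30% and 40%, beside 31.2% and 26.7%. In IL-2 cells 3 rose and 2 fell, 30% and 20%, beside 25.8% and 19.9%.

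Of 9 other TCA cycle genes, none passed limma's test between the primed groups, also at an unadjusted p of 0.05. At the adjusted threshold 20.8% of all tested genes were called there. Against naive cells 4 rose in IL-12 and 5 in IL-2 cells, 44.4% and 55.6%, beside 31.2% and 25.8% of all tested genes. The succinate dehydrogenase subunit genes Sdhd and Sdhb rose by 1.74 ± 0.15 and 1.14 ± 0.12 in IL-12 cells. In IL-2 cells they rose by 1.61 ± 0.15 and 0.92 ± 0.12. The subunit gene Sdhc rose by 0.54 ± 0.13 in IL-12 and 0.45 ± 0.13 in IL-2 cells. Sdha was called in neither, at 0.02 ± 0.10 in IL-12 and -0.10 ± 0.10 in IL-2 cells.

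**Figure D4:**
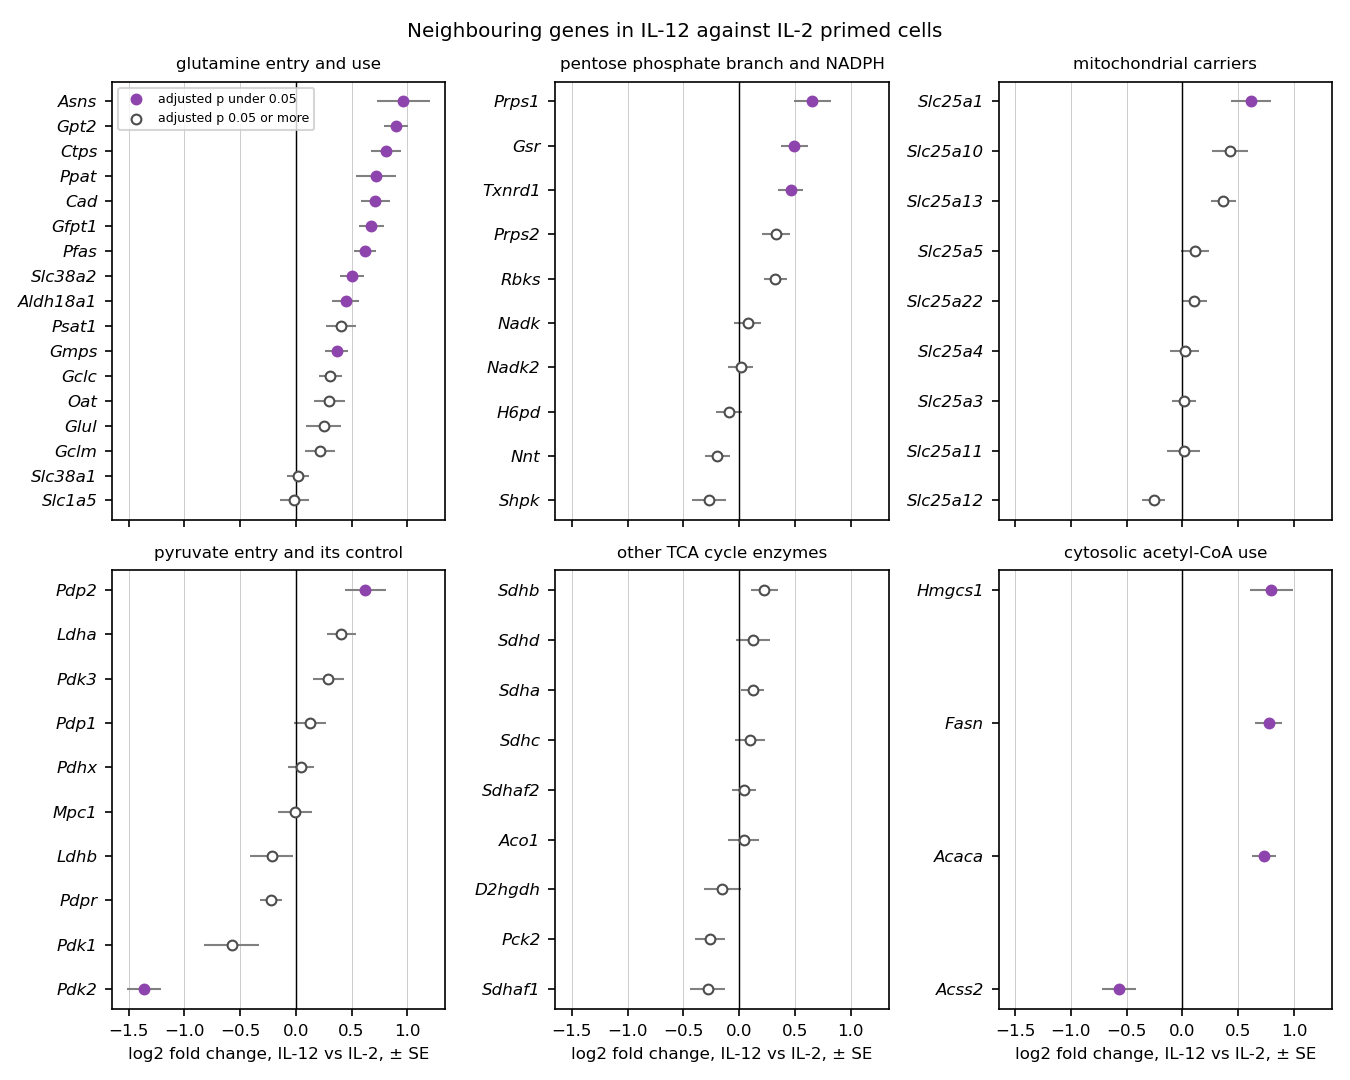
Log2 fold changes with SE (x axis) between IL-12 and IL-2 cells of the tested genes (y axis) in the 6 neighbouring lists, n = 2 arrays per group. Filled points had a limma adjusted p under 0.05, which holds for 10 of 17 genes of glutamine entry and use and 0 of 9 other TCA cycle genes, and Pdk2 lies farthest to the left at -1.36. Gpt2 passed the filter only through its IL-12 arrays.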

How the data were processed

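RNA of 6 samples was hybridised to 1 Affymetrix array each, with a biotin label. The authors deposited log2 values of 35556 probe sets computed by RMA, according to the submitters' processing notes, and its version, settings and probe set build are not given in the sources used here. The array medians of the deposited values were not equal, and centring on them is 1 of the alternatives. Gene names came from the platform's annotation, some of it possibly outdated. Of the probe sets, 21789 had 1 gene symbol and were used, 1621 had several and 12146 had none listed.

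For each of 19938 genes the probe set with the highest mean was kept, and 11147 passed the filter of at least 2 arrays above the 50th percentile. The groups of all 6 arrays were fitted together in limma 3.58.1 under R 4.3.3, using lmFit and eBayes without a replicate block (3 residual degrees of freedom, 5.618 prior, two-sided), and p-values were adjusted over all tested genes. The code was tested on simulated data. Arrays carry no read depth, and their number limits the precision.

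The members and lists were chosen with earlier results of these data known. All members are named, and of each of the 6 further lists at most 6 genes with the smallest adjusted p in a comparison. Slc1a5 and Slc38a1 were named after their values were seen. Each result was recomputed without the filter, with it at the 75th percentile, with averaged probe sets, quantile normalization, median centring, trend and robust eBayes, the compared groups alone, a replicate block, and each array left out. The genes of the further lists were added to these repeats after the data were seen. Protein sequences were not used here.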

Additional observations from a re-analysis of the deposited data

How the results depend on the processing

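The 30 genes in 3 comparisons gave 90 log2 fold changes. Averaging probe sets changed no call, and the other 7 settings that left out no single array changed the calls of 2 to 8. No called value took the other sign. Quantile normalization called Ogdh lower in IL-2 against naive cells (limma adjusted p = 0.0353) and Idh2 lower in IL-12 against naive cells (0.0383). Between IL-12 and IL-2 cells, fitting only the 2 groups compared called 3533 genes in place of 2321 and 8 enzyme genes in place of 5. The spread of the naive arrays then left the fit. Of these 8 enzyme genes, 7 were higher and 1, Glud1, was lower. Leaving out 1 array gave 737 to 3533 genes and 0 to 8 enzyme genes. For IL-2 against naive cells it gave 3341 to 5786 genes in place of 5095 and 12 to 20 enzyme genes in place of 17. For IL-12 against naive cells it gave 18 to 22 enzyme genes in place of 21.

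Replicates share numbers in the titles. The deviations of same-numbered arrays correlated at 0.153 for IL-12 with IL-2, -0.022 for IL-12 with naive and 0.015 for IL-2 with naive. Whether same-numbered arrays shared mice, cultures or a batch is not given. With 2 arrays per group these correlations cannot show it. With the replicate number as a block, 5, 16 and 22 enzyme genes were called in IL-12 against IL-2, IL-2 against naive and IL-12 against naive cells, in place of 5, 17 and 21. Cs was lost in IL-2 against naive cells (adjusted p = 0.0639) and Idh2 called lower in IL-12 against naive cells (0.0471).

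Changes near 0 that passed no test took the other sign in some settings. With quantile normalization these were Suclg1 between the primed groups (-0.0024), Idh2 in IL-2 against naive cells (-0.022), and Pdha1 (-0.021), Pcx (0.028) and Dlst (-0.020) in IL-12 against naive cells. With arrays centred on their medians they were Pdhb (0.077) and Acly (0.074) in IL-2, and Pcx (0.028) and Ogdh (0.10) in IL-12 against naive cells. Leaving out 1 array gave ranges over 0 for Pdhb (-0.26 to 0.038) and Suclg1 (-0.11 to 0.13) between the primed groups. In IL-2 against naive cells it did so for Pdhb (-0.17 to 0.13), Idh2 (-0.11 to 0.19), Acly (-0.11 to 0.061) and Fasn (-0.046 to 0.19). In IL-12 against naive cells it did so for Pdha1 (-0.047 to 0.17), Pcx (-0.23 to 0.054), Ogdh (-0.031 to 0.00079), Dlst (-0.033 to 0.13) and Suclg2 (-0.12 to 0.28). The filter at the 75th percentile left 28 of the 30 genes. The causes of these shifts were not tested.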
